A study of Mus musculus with 16 samples.

Results

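The miRNAs described here carry the names miR-297, miR-466, miR-467 and miR-669, a rodent repeat family named after a cluster inside the gene Sfmbt2. They were chosen by name alone: every mouse miRNA on the array whose name starts with one of these 4 stems, which gave 39 members of 611 mouse miRNAs (3 of miR-297, 14 of miR-466, 10 of miR-467 and 12 of miR-669). Carotid arteries of female ApoE-/- mice on a C57BL/6 background, which lack apolipoprotein E in every cell and were fed a western-type diet, were measured on 16 Agilent mouse miRNA arrays. A wire had injured the artery 1 day (n = 3), 7 days (n = 3), 14 days (n = 3) or 28 days (n = 4) before RNA was taken, and uninjured carotid arteries (n = 3) were the control. The labels give the mice of the day 1 group as 8 weeks old and those of the other groups as 6 to 8 weeks, and all groups, the control included, carry the same genotype and diet. The labels do not say whether an array holds 1 animal, so p-values measure the spread between these samples.

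MiRNAs are short RNAs that pair through their seed, bases 2 to 8, with messenger RNAs and lower their output. The Sfmbt2 cluster is a long run of related hairpins in an intron of a Polycomb-type gene on mouse chromosome 2, found in rodents and best known from placenta and embryonic stem cells. Its hairpins hold stretches of alternating bases, so that one arm tends to be rich in UG and the other in CA, and members resemble each other closely enough for their array probes to share targets. The label of the family as a single cluster holds only in part. In RefSeq (GRCm38.p6), 72 of the 82 genes of these 4 stems lie inside Sfmbt2 and 10 lie elsewhere. By name, 31 members trace only to genes inside Sfmbt2, 3 (miR-297a*, miR-466f-3p and miR-466f-5p) to genes both inside and elsewhere, and 5 (miR-466i, miR-466j, miR-466k, miR-467f and miR-467g) only to genes on other chromosomes. For 6 members the array lists more than 1 miRNA name behind the same probes, so that the 39 members stand for 50 names. The miR-669d probe, for example, also lists miR-467h, and the miR-669b probes also list miR-297a and miR-466f.

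RefSeq mature sequences were at hand for 4 members by exact name. They are printed because the levels below divide the family into groups led by miR-467f, with a CA repeat, and miR-466j, with a UG repeat. The seed is in capitals in each line. The CA-rich sequences come first, with miR-466i-3p shown for the member miR-466i, whose array name gives no arm, so that this match is uncertain. 
miR-467f: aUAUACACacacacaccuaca
miR-467g: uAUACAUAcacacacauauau
miR-466i-3p: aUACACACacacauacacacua
The UG-rich sequences follow, with miR-467h standing behind the miR-669d probe.
miR-466j: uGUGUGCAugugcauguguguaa
miR-466k: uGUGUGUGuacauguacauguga
miR-467h: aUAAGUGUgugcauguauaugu
The 2 strands of miR-574 and miR-1187, which are no members of the family, are shown because they carry the same repeats and were measured well above background on all 16 arrays.
miR-574-3p: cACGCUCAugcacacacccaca
miR-574-5p: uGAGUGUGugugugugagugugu
miR-1187: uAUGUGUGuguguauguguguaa

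No seed is shared between any pair of these 9 sequences, and they differ in which of the repeats they hold. MiR-467f holds an alternating CA run of 12 bases, miR-466i-3p of 11, miR-467g of 9 and miR-574-3p of 7. MiR-574-5p holds an alternating UG run of 13 bases, miR-1187 of 11, miR-466k of 9, and miR-466j and miR-467h of 7 each. The longest stretch shared by miR-467f and miR-466i-3p is 13 bases, whereas miR-467f and miR-466j share only 2 in a row but pair perfectly over 8. The hexamer CACACA, searched on the strand of the mature RNA, is in 12 of 1679 mature mouse miRNAs (0.715%) and UGUGUG in 28 (1.67%). On GRCm38.p6 the RefSeq entries lie at chr11:69635419-69635439 (miR-467f, minus strand), chr5:34732872-34732892 (miR-467g, minus), chr13:17747552-17747573 (miR-466i-3p, plus), chr10:60960802-60960824 (miR-466j, plus), chr3:85467396-85467418 (miR-466k, plus) and chr9:115381898-115381919 (miR-467h, plus).

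The members were dim. Each had 1 to 4 probes and 20 spots on an array, no spot was saturated, and the brightest value of the family, miR-669f, was 597.3 intensity units on its highest array. Across arrays the 75th percentile of the signal of the 395 probes detected everywhere ran from 401 to 1432 units. Detection means that the scanner software marked at least 50% of a probe's spots as well above background. In the counts per array a miRNA is detected if any of its probes is. Elsewhere a miRNA is judged by its brightest probe. Between 15 and 19 members were detected on the uninjured arrays and 26 to 29 on those of day 1. The day 7 arrays had 25 to 28, the day 14 arrays 22 to 26 and the day 28 arrays 20 to 28. Over all mouse miRNAs, 252 to 292 were detected on uninjured arrays and 299 to 323 on day 1 arrays. Later groups likewise had more miRNAs detected than most uninjured arrays: 310 to 336 (day 7), 287 to 337 (day 14) and 290 to 331 (day 28). Uninjured arrays had a 75th percentile of 401 to 624 units, against 484 to 761 (day 1) and 816 to 1214 (day 7). It was 518 to 1432 units for day 14 and 566 to 1097 for day 28. The part of array brightness in the detection counts was not tested.

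Of the 39 members, 10 were detected on all 16 arrays: miR-466c-5p, miR-466f-3p, miR-466g, miR-466i, miR-467a*, miR-467b, miR-467f, miR-669a, miR-669c and miR-669f. Another 8 (miR-297b-5p, miR-466d-5p, miR-466k, miR-467d, miR-669g, miR-669h-5p, miR-669j and miR-669k) were detected on 0 arrays. MiR-297c, miR-466a-5p and miR-466b-5p were detected on 7, 1 and 2 arrays but on every array of no group. The remaining 28 members, the 10 included, were detected on every array of at least 1 group and were tested, as were 321 miRNAs in all. Among the 28 were 1 of the 3 miR-297 names, 10 of the 14 miR-466, 9 of the 10 miR-467 and 8 of the 12 miR-669. MiR-466d-3p, miR-466l and miR-669i passed only through the day 1 group, where they are high, so their difference there is partly fixed by the filter. In the same way miR-467e passed only through day 7 and miR-466f-5p only through day 14.

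All levels below are log2 of the signal over that array's 75th percentile. A level of 0 is the 75th percentile itself, and signals under -5.79 were set to that floor. Levels are set against each other only within a member, since probes differ in brightness for the same amount of RNA. The arrays sat on 2 slides: day 1 and day 7 on slide 1, uninjured and day 14 on slide 2, and day 28 with 2 arrays on each. Day 1 and day 7 can therefore be set against the uninjured group with slide as a term only through the day 28 arrays. The terms miR-467f group and miR-466j group are used below for the members whose levels followed these 2 miRNAs over the 16 arrays, a division taken from the levels themselves and given in full further on. Arrays of a group correlated with r of 0.929 to 0.996 over the tested miRNAs, lowest within day 14. With bulk RNA, more cells of a type and more RNA in each cell cannot be told apart.

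At day 1 the family stood higher than in uninjured arteries. All 28 tested members had a positive difference, and 27 had every day 1 array above every uninjured array, against 31.8% of all tested miRNAs; 0 members had every day 1 array below, against 15.3%. The median difference of the 28 was log2 1.40, beside 0.24 for all 321 miRNAs. This includes members that passed the filter through day 1. Among the 10 members detected on all arrays the median was 1.09, beside 0.10 for the 219 miRNAs so detected. Sign and size depended on scaling: with the 75th percentile over all mouse probes or with the median 26 of 28 were above 0, with quantile normalization 25, and with no scaling 28. The median of all tested miRNAs itself moved with the scaling, from -0.34 to 0.43, while the members' median lay above it by 1.16 with the main scaling and by 0.93 (quantile) to 1.20 (median) with the others.

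In limma's moderated test with Benjamini-Hochberg adjustment over the 321 miRNAs, 13 members rose at day 1 and 0 fell at an adjusted p under 0.05, where 19.6% of all tested miRNAs were called higher, 12.8% lower and 32.4% in either direction. They are 6 of the miR-466 names (miR-466a-3p, miR-466c-5p, miR-466d-3p, miR-466h, miR-466j and miR-466l), miR-467c, and 6 of the miR-669 names (miR-669a, miR-669b, miR-669d, miR-669e, miR-669f and miR-669i). Of these, miR-466d-3p, miR-466l and miR-669i entered the test only through day 1, where they are high. MiR-669i was -5.65, -5.64 and -5.57 on the uninjured arrays and -2.85, -3.67 and -3.50 at day 1. Its 3 uninjured arrays were not well above background, and the day 1 arrays lay clear of them. Its log2 difference was 2.28 (SE 0.59, adjusted p = 0.00989), a level at least 3.86-fold higher. MiR-669e was -5.01, -5.06 and -4.90 in uninjured arteries and -2.61, -2.93 and -2.63 at day 1. The groups did not overlap, and the difference was 2.26 (SE 0.67, adjusted p = 0.0217), at least 4.80-fold.

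MiR-466d-3p, which entered the test only through day 1, had the smallest p of the family. Its SE is small in part because values at the floor do not vary. It lay at the floor on 2 uninjured arrays and at -5.60 on the third, against -3.37, -3.47 and -3.90 at day 1. The uninjured arrays were not well above background on any of the 3, and the rise was 2.15 (SE 0.24, adjusted p = 2.65e-05), at least 3.29-fold. MiR-669f, detected on every array, went from -1.87, -2.10 and -2.15 to -0.82, -1.10 and -1.06, a 2.06-fold rise (log2 1.05, SE 0.37, adjusted p = 0.0429). MiR-669a, also detected on every array, went from -3.56, -3.76 and -3.55 to -2.42, -2.73 and -2.32, a 2.19-fold rise (log2 1.13, SE 0.38, adjusted p = 0.0369). The other 8 called members had differences of 1.00 (miR-466l) to 2.08 (miR-466h), with adjusted p from 0.00431 to 0.0435.

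Among the 15 tested members that were not called were all 9 of the miR-467f group, with differences of 0.67 to 1.77 and wide errors. In a fit of only the uninjured and day 1 arrays, an alternative added after seeing the data, all 9 of them were called higher, among 26 of the 28 members. That fit called 122 of all 321 tested miRNAs in either direction. MiR-467f was -2.24, -2.25 and -2.40 in uninjured arteries and -1.18, -1.68 and -1.59 at day 1. Its arrays did not overlap, but the difference of 0.81 had an SE of 0.78, which draws on the spread of miR-467f itself over all 5 groups (adjusted p = 0.439). MiR-467b was -4.52, -4.49 and -4.36 and then -4.22, -4.42 and -4.60, so the groups overlapped (difference 0.04, SE 0.30). It was below 0 with the 75th percentile over all mouse probes (-0.59) and with quantile normalization (-0.51).

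**Figure D1:**
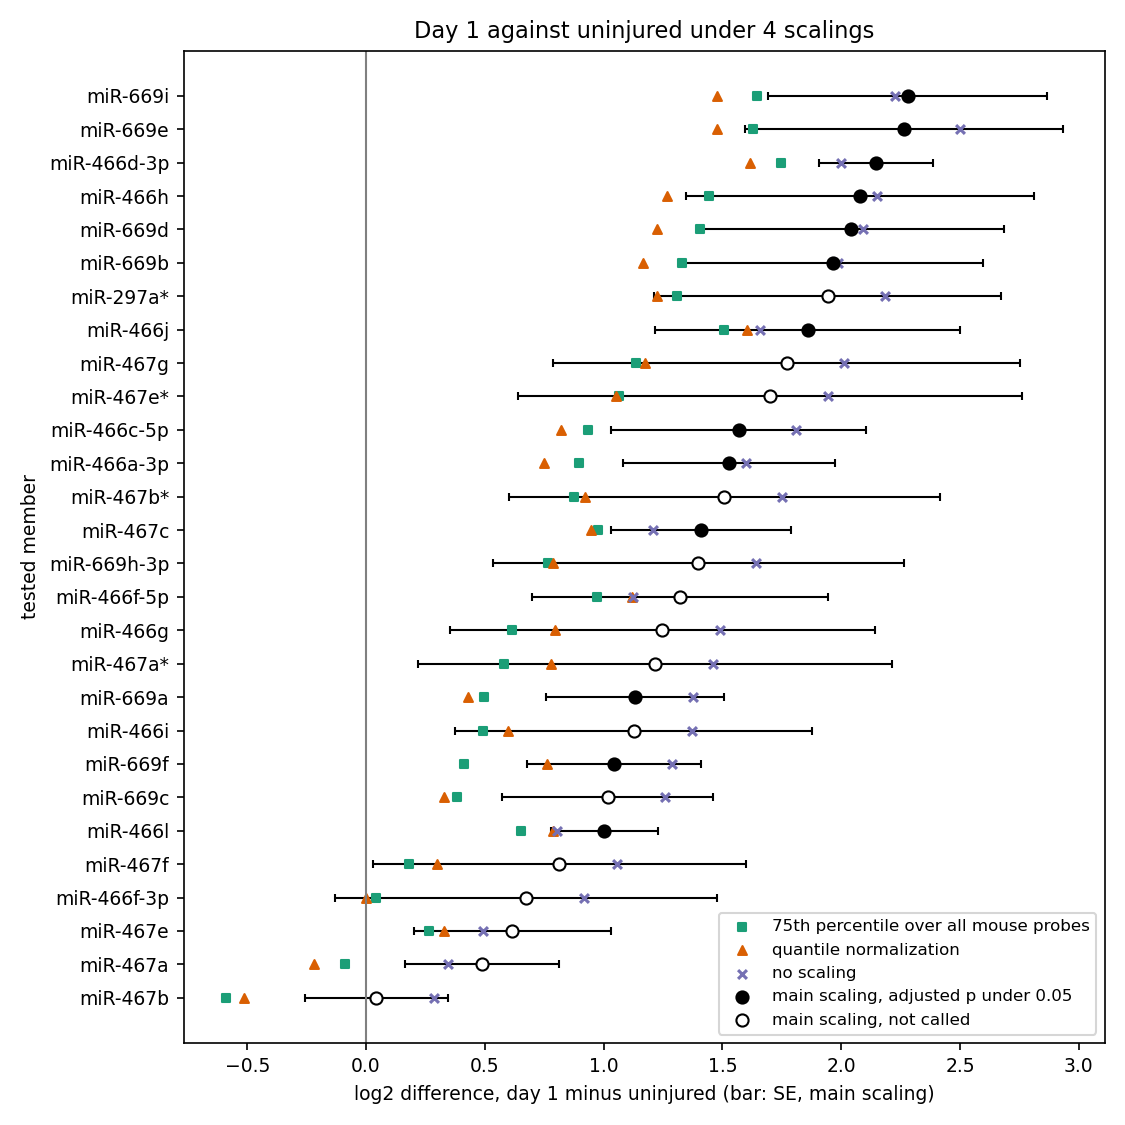
Log2 difference between day 1 and uninjured for each of the 28 tested members (x axis, log2 units). Circles with SE bars give the main scaling, filled where the adjusted p was under 0.05, and the other markers give 3 other scalings; all circles lie above 0, while miR-467b and miR-467a fall below 0 with the 75th percentile over all mouse probes and with quantile normalization.

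Probes of the same miRNA mostly went the same way. Of 27 tested members with at least 2 probes detected on some array, 23 had all of these probes above 0 at day 1. In the other 4 (miR-466f-5p, miR-467a, miR-467c and miR-467e) the lowest such probe showed 0.00. It lay at the floor on the uninjured and day 1 arrays, so this value is no measured lack of change. The 2 probes of miR-669i gave 2.28 and 2.30, and the 4 of miR-466d-3p 0.68 to 2.15.

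The day 1 calls were sensitive to the slide term, the scaling and normexp background correction with an offset of 50 units. With slide as a fixed block 2 members kept an adjusted p under 0.05, miR-466d-3p (2.59, adjusted p = 0.00113) and miR-669i (3.26, adjusted p = 0.0431), of 30 called miRNAs in all. Both entered the test only through day 1, where they are high. The median difference of the 28 members with this block was 1.89, beside 0.14 for all tested, where it was 1.40 and 0.24 without the block. With the 75th percentile over all mouse probes, the median or quantile normalization, 3, 3 and 2 of the 28 members were called, beside 112, 120 and 95 of all 321 miRNAs, so that the called share of members lay below that of all miRNAs. With normexp background correction none was called, and the differences of the 13 ran below their main values (miR-466d-3p 0.47, miR-669i 0.54). The offset exceeds the median signal of miR-466d-3p (12.6 units) and of miR-669i (18.4 units). A constant of this size shrinks log2 differences of dim signals, and how much of the loss came from it was not tested. Leaving out day 1 replicate 1 left 3 called, and leaving out any other uninjured or day 1 array left 4 to 6. The summed level of 5 leukocyte miRNAs (miR-223, miR-142-3p, miR-142-5p, miR-155 and miR-150), on the linear scale, was 1.61 to 1.97 in uninjured arteries and 25.6 to 28.3 at day 1. The part of these cells in the family's rise was not tested.

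At day 7 the members went both ways. All 9 of the miR-467f group had differences below 0 against uninjured arteries, from -0.94 to -0.50 with a median of -0.70, and 9 of the 10 of the miR-466j group lay above 0, with a median of 0.79 and a group mean that was raised on replicate 1 alone. Against uninjured arteries 1 member was called higher (miR-467c) and 0 lower, where 49.8% of all tested miRNAs were called in either direction, 27.4% higher and 22.4% lower. All day 7 arrays lay above all uninjured arrays in 4 members, against 29.6% of all tested miRNAs, and below them in 8, against 31.8%. Among the 4 is miR-467e, which passed the filter only through day 7. The members' median difference was 0.03, beside 0.00 for all tested. MiR-467c lay at the floor on all 3 uninjured arrays and at -3.83, -5.17 and -5.41 at day 7. Replicate 1 stood well above the other 2, and the difference was 0.98 (SE 0.38, adjusted p = 0.0445), at least 1.42-fold. The call was lost with slide as a block (0.42, adjusted p = 0.676) and without day 7 replicate 1. In a fit of only the uninjured and day 7 arrays it was not called, while 5 members of the miR-467f group were called lower and 2 members that follow neither miRNA higher. That fit called 164 of all 321 tested miRNAs in either direction, a larger share than of the 28 members.

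Day 7 could be set against day 1 within a slide. In that comparison 5 members fell and 0 rose, where 24.6% of all tested miRNAs were called lower, 18.7% higher and 43.3% in either direction. The 28 members had a median difference of -1.19, beside -0.19 for all tested, with 25 below 0. In 15 of the 28 every day 7 array lay below every day 1 array, against 35.5% of all tested miRNAs, and in 0 above, against 26.5%. MiR-297a* was -2.56, -2.63 and -2.43 at day 1 and -5.75, -4.63 and -4.51 at day 7. The groups did not overlap, and it fell by 2.43 (SE 0.73, adjusted p = 0.0167), a 5.39-fold lower level. MiR-467g was -1.67, -2.31 and -1.53 and then at the floor, -3.98 and -3.89. It fell by 2.71 (SE 0.98, adjusted p = 0.0400), at least 6.57-fold. MiR-669i fell by 2.33 (SE 0.59, adjusted p = 0.00605) and miR-466d-3p by 2.14 (SE 0.24, adjusted p = 1.61e-05). MiR-466l fell by 1.00 (SE 0.23, adjusted p = 0.00282), from -4.04, -5.29 and -5.01 to the floor on all 3 arrays. These last 3 entered the test only through day 1, where they are high. With slide as a block the differences of these 5 did not move, since both groups share slide 1, and all 5 stayed under an adjusted p of 0.05. The leukocyte sum was 13.1 to 17.4 at day 7.

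At day 14, 4 members were called higher and 0 lower against uninjured arteries, which share their slide, where 20.2% of all tested miRNAs were called higher, 19% lower and 39.3% in either direction. All 4 are of the miR-466j group. The arrays lay wholly above the uninjured ones in 9 members, against 27.4% of all tested miRNAs, and wholly below in 0, against 23.4%. Among the 9 is miR-466f-5p, which passed the filter only through day 14. MiR-466h was -5.35, -5.56 and -5.18 in uninjured arteries and -3.21, -2.99 and -3.57 at day 14. The arrays lay apart, and it rose by 2.11 (SE 0.73, adjusted p = 0.0359), at least 3.74-fold. MiR-669b was -5.39, -5.67 and -5.62 and then -3.41, -3.02 and -4.29 (difference 1.98, SE 0.63, adjusted p = 0.0243). MiR-467c rose by 1.24 (SE 0.38, adjusted p = 0.0199), to -4.81, -4.32 and -4.51 from the floor. Its second, dimmer probe was detected on only 2 arrays and lay at the floor in the uninjured, day 14 and day 28 groups, which gives 0.00. With normexp the difference of miR-467c was -0.0036 at day 14 and -0.017 at day 28, with 0 members called at either day. The normexp offset of 50 units exceeds the median signal of miR-467c, 29.9 units. MiR-669a rose by 1.11 (SE 0.38, adjusted p = 0.0331), to -2.09, -2.29 and -3.16. Without day 14 replicate 2 none was called, and without day 7 replicate 1, which enters only through the shared spread, 9 were. The members' median difference was 0.12, beside 0.00 for all tested.

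At day 28, miR-467c and miR-669a were called higher and 0 members lower, where 16.8% of all tested miRNAs were called higher, 9.35% lower and 26.2% in either direction. All day 28 arrays lay above all uninjured arrays in 9 members, against 20.9% of all tested miRNAs, and below in 0, against 10.9%. MiR-467c was -3.89, -4.28, -4.27 and -5.02 at day 28, above the floor at which the uninjured arrays lay (difference 1.42, SE 0.35, adjusted p = 0.00916), at least 1.92-fold. MiR-669a was -1.82, -2.52, -2.61 and -2.11, above all uninjured arrays (difference 1.36, SE 0.35, adjusted p = 0.0118), 2.56-fold. With slide as a fixed block neither passed (adjusted p = 0.0768 and 0.0695), although each difference stayed above 1. Both were called at days 1, 14 and 28, and miR-467c at day 7 as well, comparisons that share the uninjured arrays.

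Between day 14 and day 28, 0 members were called by limma at an adjusted p under 0.05 and 0 at an unadjusted p under 0.05, where 15.3% of all tested miRNAs were called in either direction, 9.66% higher and 5.61% lower. No member had arrays of day 28 wholly above or wholly below those of day 14, against 15.6% and 8.72% of all tested miRNAs. The smallest adjusted p belonged to miR-467b (difference 0.48, SE 0.28, adjusted p = 0.313). In the moderated F test over the 4 days, 5 members were called (miR-466d-3p, miR-466l, miR-467c, miR-669a and miR-669i), where 61.1% of all tested miRNAs were. Of the 5, miR-466d-3p, miR-466l and miR-669i entered only through day 1.

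**Figure D2:**
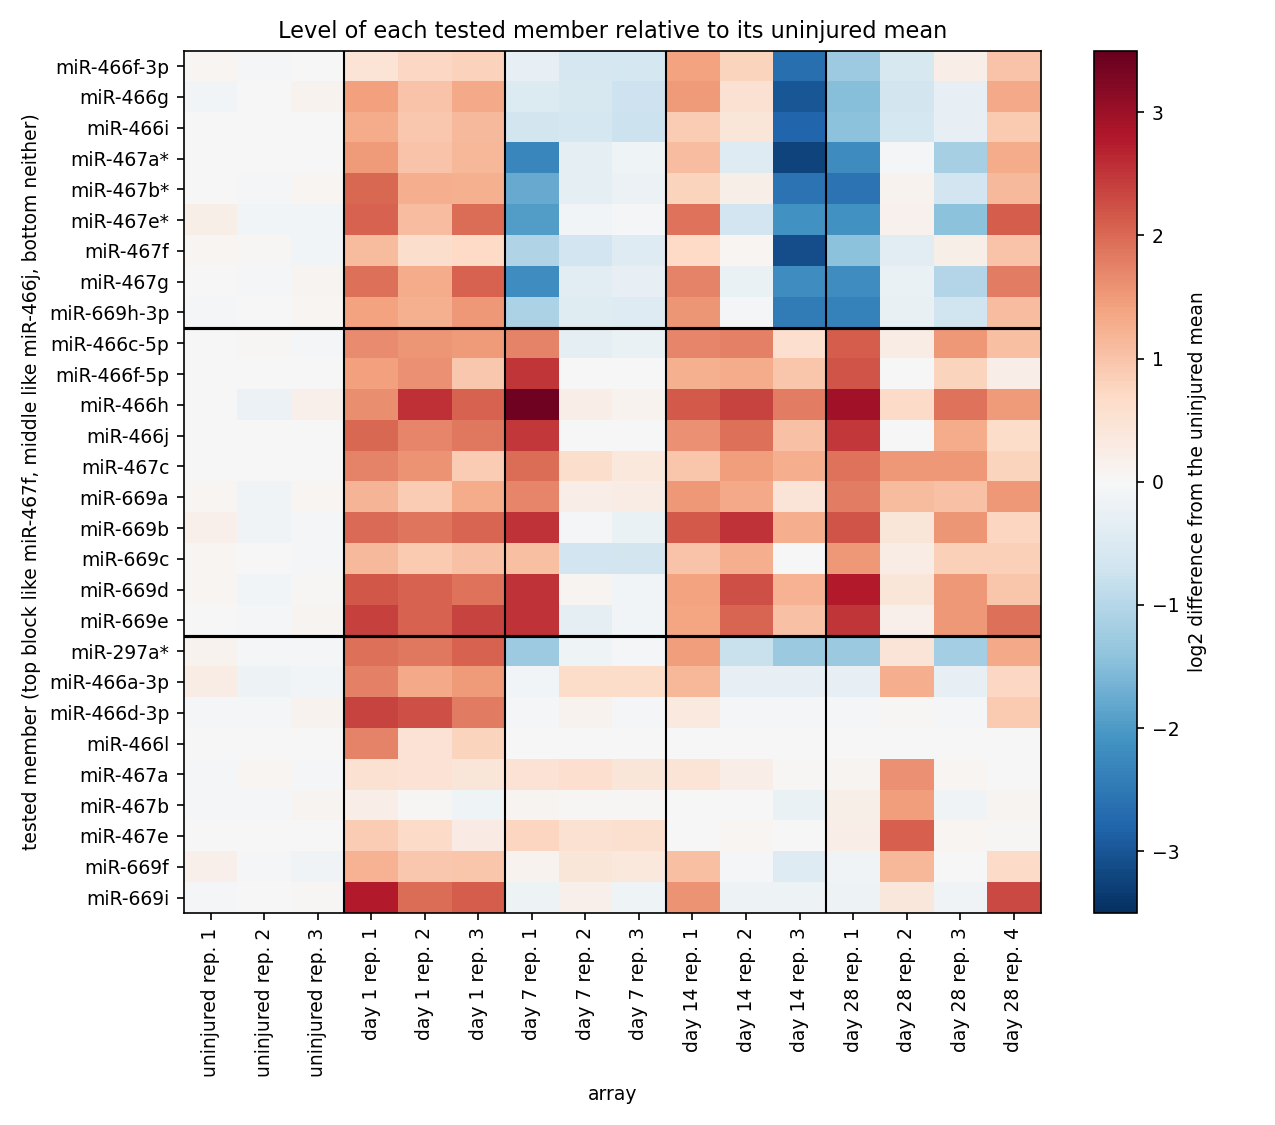
Level of each of the 28 tested members (rows) on each of the 16 arrays (columns) minus its uninjured mean, in log2 units (red higher, blue lower). The upper 9 rows follow miR-467f, the next 10 follow miR-466j and the last 9 follow neither; day 1 is red in nearly all rows, and on day 7 replicate 1, day 14 replicate 3 and day 28 replicate 1 the upper block is blue while the middle block is red.

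The family's levels were widely spread within groups. The median residual SD of the 28 members within groups was log2 0.84, against 0.30 for all tested miRNAs, and among those detected on all arrays 0.85 against 0.27. MiR-467e* had the highest residual SD of all 321 tested miRNAs, 1.41. On the uninjured arrays the spread was small: miR-467f had an SD of 0.09 and miR-466i of 0.01 (n = 3). At day 14 their SDs were 2.04 and 1.99 (n = 3).

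This spread had a common shape, described here by the correlation of each member with miR-467f and with miR-466j over the 16 arrays. The values that form the groups are the members' own levels, so what follows is a description. MiR-467f was -3.36, -2.95 and -2.75 at day 7, -1.60, -2.23 and -5.40 at day 14, and -3.74, -2.67, -2.09 and -1.29 at day 28. It was lowest in its group on day 7 replicate 1, day 14 replicate 3 and day 28 replicate 1. MiR-466j lay at the floor on every uninjured array. It was -3.78, -4.07 and -3.94 at day 1, -3.31 with the other 2 arrays at the floor at day 7, -4.20, -3.87 and -4.77 at day 14, and -3.30, the floor, -4.50 and -5.14 at day 28. On day 7 replicate 1 and day 28 replicate 1, where miR-467f was lowest, miR-466j was highest in its group. On day 14 replicate 3 both were lowest in their group. The r between the 2 was 0.02 (Spearman's rho 0.16, n = 16 arrays, which share scaling and slides).

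**Figure D3:**
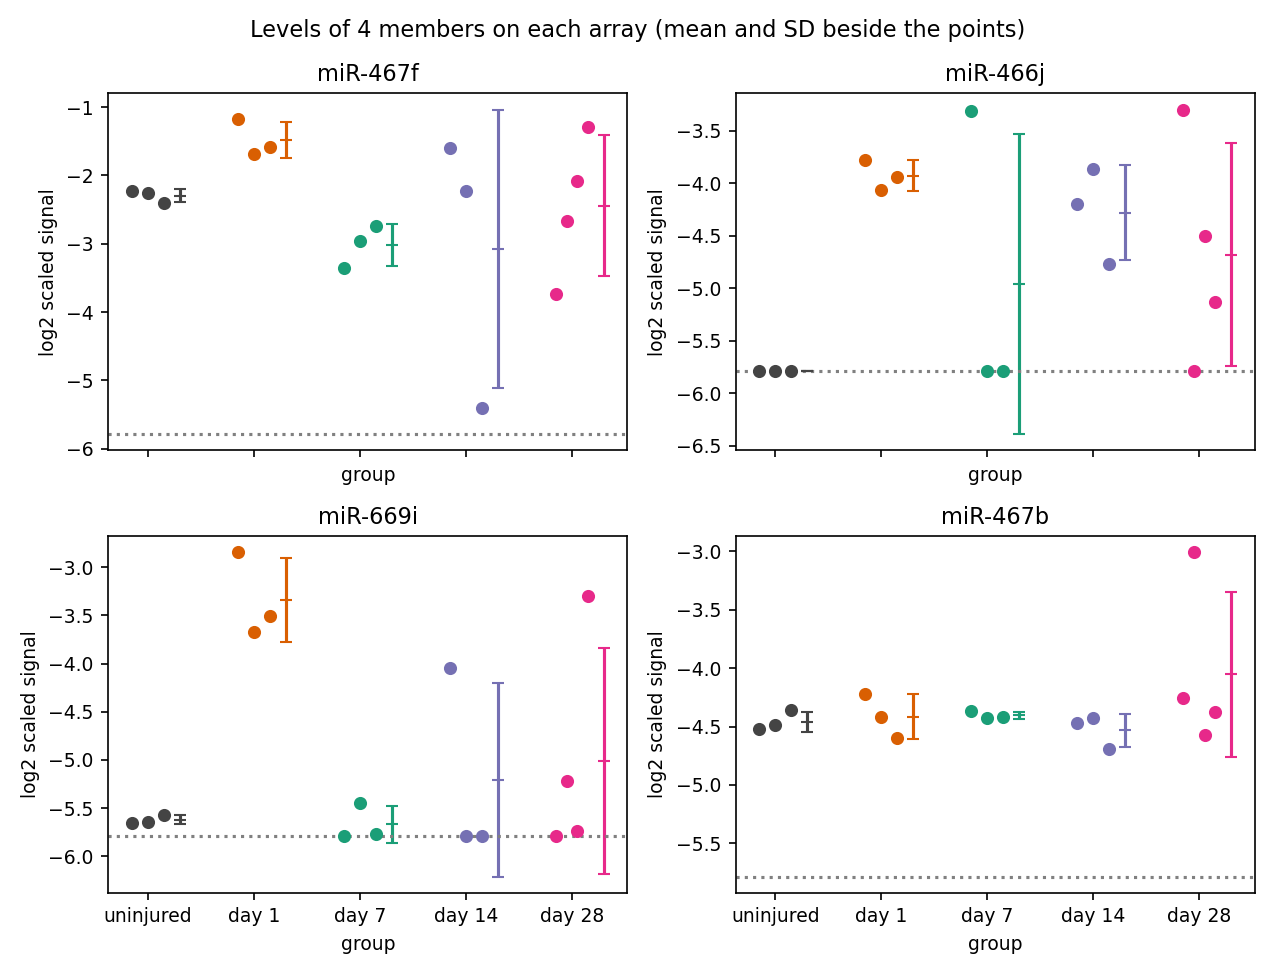
Level of miR-467f, miR-466j, miR-669i and miR-467b on each array by group, in log2 units of the scaled signal, with the group mean and SD beside the points and the floor of -5.79 dotted. Uninjured arrays sit close together, while at day 14 miR-467f runs from -5.40 to -1.60 and at day 7 miR-466j is at -3.31 on 1 array and at the floor on the other 2.

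With r of at least 0.8 as the limit, 9 members including miR-467f itself followed miR-467f: miR-466i (r = 0.97), miR-466g (0.96), miR-466f-3p (0.94), miR-467a* (0.92), miR-669h-3p (0.91), miR-467b* (0.91), miR-467g (0.86) and miR-467e* (0.82). Another 10 including miR-466j followed miR-466j: miR-669d (r = 0.99), miR-669b (0.97), miR-466f-5p (0.96), miR-466c-5p (0.95), miR-466h (0.94), miR-669e (0.94), miR-669c (0.88), miR-669a (0.81) and miR-467c (0.80). MiR-297a* (0.76 with miR-467f) lay just under the limit. The opposite arms of miR-466f fell on opposite sides, 3p with miR-467f and 5p with miR-466j. The first group holds only names with a 3p or star arm or with none stated, and includes both members with a CA run in an exact-name sequence.

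The mean level of the first group relative to the uninjured mean was -1.30 on day 7 replicate 1, -2.68 on day 14 replicate 3 and -1.90 on day 28 replicate 1, while that of the second was 2.24, 0.96 and 2.24 on the same arrays. At day 1 both were high on every array, 1.02 to 1.47 for the first and 1.58 to 1.73 for the second. On day 7 replicates 2 and 3 the second group was back at -0.02 and -0.05. Of the 13 members called at day 1, 8 follow miR-466j, 5 follow neither and 0 follow miR-467f. In the fit of only the uninjured and day 1 arrays the called members were all 10, 7 of 9 and all 9 of these, so the split depends on which groups enter the fit. That fit called 122 of all 321 tested miRNAs.

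The ratio of a member of the first group to one of the second within an array needs no scaling. Relative to its uninjured mean, the log2 ratio of miR-467f to miR-669c was -2.10 on day 7 replicate 1, -3.09 on day 14 replicate 3, -2.97 on day 28 replicate 1 and -1.21 on day 14 replicate 2, and -0.64 to 0.20 on the other 9 arrays of injured arteries. Hence these 2 members changed unequally on those 4 arrays. They were taken from groups formed on the same levels, so the ratio is a description. For miR-574, whose strands come from 1 hairpin outside the family, the ratio of the CA-bearing 3p to the UG-bearing 5p strand was -1.48, -2.64, -2.19 and -0.99 on those 4 arrays. It was -0.89 on day 28 replicate 3 and -0.32 to 0.42 on the remaining arrays of injured arteries. The 5p strand had r of 0.82 with miR-466j and 0.18 with miR-467f, and the 3p strand 0.11 and 0.95. Both strands were detected on every array. MiR-1187, with its UG run, had r of 0.88 with miR-466j. MiR-342-3p, which also holds CACACA, had r of -0.39 with miR-467f. Only 66 of the 321 tested miRNAs had a sequence by exact name, 4 with CACACA and 3 with UGUGUG. The hexamers could not be searched in the others, and whether they go with the patterns was not tested.

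**Figure D4:**
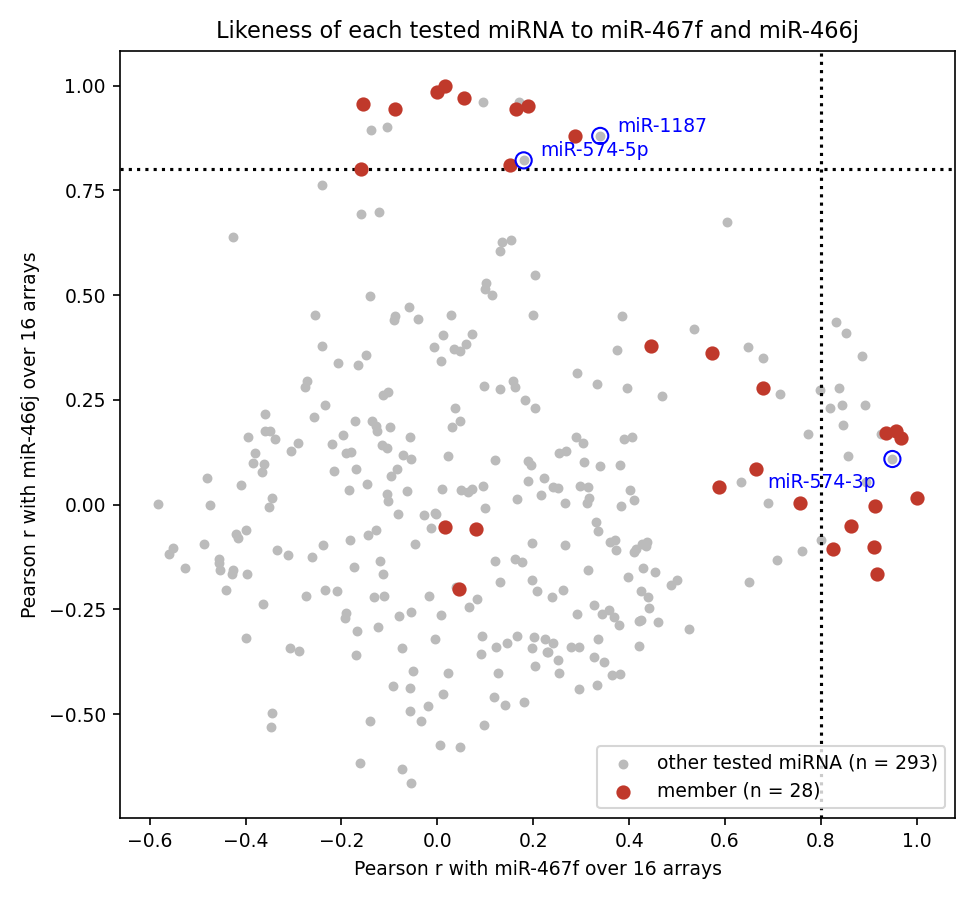
Pearson correlation over 16 arrays of each of the 321 tested miRNAs with miR-467f (x axis) and with miR-466j (y axis), with members in red and 3 repeat-bearing miRNAs from outside the family circled. Dotted lines mark r = 0.8; no miRNA lies beyond both lines, and miR-574-3p lies beyond the first and miR-574-5p and miR-1187 beyond the second.

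Of the 293 tested miRNAs outside the family, 13 followed miR-467f at the same limit and 6 followed miR-466j. The first were led by miR-574-3p, miR-483* (r = 0.93), miR-197 (0.89), miR-1894-5p (0.89) and miR-877* (0.88), the second by miR-468 (0.96), miR-672 (0.96), miR-1906 (0.90) and miR-16* (0.89). In a separate list of 9 miRNAs from outside the family (miR-574-5p, miR-574-3p, miR-1187, miR-1188, miR-877, miR-709, miR-762, miR-483 and miR-1224), 8 were tested. The list was drawn up for sequences rich in U and G, which the CA-bearing miR-574-3p is not. Apart from miR-574-5p, miR-574-3p and miR-1187, whose sequences are printed above, the listed miRNAs were not checked for this. At day 1, 2 of the 8 were called higher (miR-1224 by 1.34, miR-483 by 1.06) and 0 lower, and miR-574-5p (0.58, SE 0.42), miR-574-3p (0.72, SE 0.72) and miR-1187 (1.60, SE 0.65) were not called.

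The 9 members that followed neither were of several kinds. MiR-467a, miR-467b and miR-467e, without a star, had their highest level of all on day 28 replicate 2, at -4.14, -3.01 and -3.68. On the other 3 day 28 arrays miR-467b was -4.57 to -4.26, close to its uninjured level of -4.46 ± 0.09 (SD, n = 3), and miR-467e was -5.76 to -5.55. MiR-466d-3p, miR-466l and miR-669i were high at day 1 and mostly near the floor elsewhere, with day 14 replicate 1 (-4.04) and day 28 replicate 4 (-3.30) as exceptions for miR-669i. With miR-467f, the members miR-297a*, miR-466a-3p and miR-669f had r of 0.76, 0.59 and 0.67. MiR-669i, miR-466d-3p and miR-466l had 0.68, 0.57 and 0.44, so r does not set these apart from the former.

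Markers of other cell types gave the following sums on the linear scale. Both smooth muscle miRNAs (miR-143 and miR-145) were detected on every array, as the labelled tissue has smooth muscle. Their sum was 3.53 to 6.37 in uninjured arteries and 2.94 to 5.13 on day 1 arrays. The later groups had 1.54 to 1.80 (day 7), 1.89 to 2.08 (day 28), and the lowest sum, 1.05, was on a day 14 array. The leukocyte sum was 10.3 to 16.2 at day 14 and 8.57 to 11.9 at day 28. The 4 striated muscle miRNAs summed to 7.97 to 12.2 in uninjured arteries and 5.68 to 19.5 at day 1. The endothelial list of 2 (1 tested) summed to 9.70 to 10.3 and 7.05 to 9.82, the nerve list of 3 (2 tested) to 0.64 to 1.63 and 1.12 to 2.45, and the erythroid list of 3 to 16.3 to 42.9 and 27.7 to 63.0 in the same groups. On day 7 replicate 1, day 14 replicate 3 and day 28 replicate 1, the leukocyte sum was 17.4, 10.3 and 8.87 and the smooth muscle sum 1.55, 1.09 and 1.93. The first 2 leukocyte sums were the highest and the lowest of their groups. Their part in the patterns was not tested.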

How the data were processed

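The deposited scanner files hold the intensity of each spot after the authors' processing in Agilent Feature Extraction 9.5.1.1, per the file headers, with detection marks per spot (other values). Per the labels, 700 ng of total RNA were labelled with Cy3. The deposited value table holds the total gene signal of 610 miRNAs, within 0.1% of the scanner files' own, as intensity with column medians of 3.81 to 16.6. Its scale is linear and its columns were not centred. How spot background was estimated is not given in the sources used here.

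The processed signal was averaged over the unmarked spots of a probe (8 to 48 outlier spots of members on an array were left out) and divided by the array's 75th percentile over the 395 mouse probes well above background on each of the 16 arrays. A floor of 0.0181 was applied, log2 was taken, and the brightest probe stood for each miRNA. MiRNAs detected on every array of at least 1 group were tested with limma 3.58.1 in R 4.3.3 (and data.table, version 1.17.8, to load the arrays): 1 model over the 5 groups without covariates, moderated tests, Benjamini-Hochberg adjustment over all 321 within each comparison. The number of arrays limits the precision. A fold is "at least" where detection differed or the lower group reached the floor. It takes undetected arrays at their array's lowest detected signal if that is higher.

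The name stems, lists and alternatives were chosen with earlier results of these data known. Given the stems, the members follow by name alone. Named are all called members, and for levels the members detected on all arrays. The 4 scalings, 2 floors, filters, background, slide and replicate blocks, the table of values and each array left out were tried as alternatives, and 2 more were chosen after seeing the data. The calculation was tested on simulated data. Figures were drawn with matplotlib 3.10.9 in Python 3.11.15.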

Additional observations from a re-analysis of the deposited data

Results flagged for a closer look

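In the day 28 group of 4 arrays, 1 array stood far from the others in 4 of the 28 tested members, as measured by its gap to the nearest array over the group's range. Chance alone gives about 5% of such groups if members are independent and no value is set to a floor. Here the 4 members share replicates 2 and 4, and miR-466d-3p and miR-466l had arrays at the floor. The 5% is therefore no reference for this count. MiR-467a was -4.14 on replicate 2, against -5.73 to -5.66 on the others. MiR-467e was -3.68 on the same array, against -5.76 to -5.55. MiR-466d-3p was -4.80 on replicate 4, against -5.79 to -5.69. MiR-466l was -5.77 on replicate 4, where the other 3 lay at the floor of -5.79, a gap of no practical size.

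The difference from uninjured arteries was not the same at day 7 as at day 1 in 5 members, by limma's test of day 7 against day 1 with Benjamini-Hochberg adjustment. MiR-297a* was lower at day 7 by a log2 difference of -2.43 (adjusted p = 0.0167), lower on 3 of 3 arrays. MiR-466d-3p differed by -2.14 (adjusted p = 1.608e-05), miR-466l by -1.003 (adjusted p = 0.002817), miR-467g by -2.71 (adjusted p = 0.03998) and miR-669i by -2.33 (adjusted p = 0.006047), each with all 3 day 7 arrays below all 3 day 1 arrays. MiR-466d-3p, miR-466l and miR-669i entered the test only through day 1.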

How the results depend on the processing

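Counts of called members moved by over 1.5 times with many choices, though not for day 28 against day 14 outside 1 alternative, and not with outlier spots kept or the replicate block alone. At day 1 (13) the count was 3 with the 75th percentile over all mouse probes, 3 with median scaling, 2 with quantile normalization, 7 with no scaling, 0 with normexp, 4 with no filter, 3 of 10 among members detected on all arrays, 6 with a floor 2 times as high, 6 with total gene signal, 2 with slide as a fixed and 8 as a random block, 1 with replicate block and slide, and 26 in a fit of only the 2 groups compared. With the first 3 of these scalings 112, 120 and 95 of all 321 miRNAs were called, a larger share than of members, where the main scaling gave the reverse. At day 7 (1) it was 0 with quantile normalization, normexp, no filter, detection on all arrays, the higher floor, the mean over probes, slide as a fixed or random block, and replicate block with slide, 5 with no scaling, 2 with a floor 0.5 times as high and 7 (2 higher, 5 lower) in a fit of the 2 groups. At day 14 (4) it was 2 with median scaling, 7 with no scaling, 0 with normexp or no filter, 1 with detection on all arrays or the higher floor, 2 with the mean over probes, and 9 within slide 2 or in a fit of the 2 groups. At day 28 (2) it was 7 with no scaling, 0 with normexp, 1 with detection on all arrays, the higher floor, total gene signal or the value table, and 0 with slide as a fixed block, alone or with the replicate block. For day 7 against day 1 (5) it was 2 with no scaling, 8 with normexp, 0 with detection on all arrays, 9 with the mean over probes, 13 within slide 1 and 15 in a fit of the 2 groups. The F test (5) gave 3 with normexp, 2 with no filter, 1 with detection on all arrays and 3 with the value table. In the fits of 2 groups, 122 (day 1), 164 (day 7), 104 (day 14) and 164 (day 7 against day 1) of all 321 miRNAs were called. Within 1 slide 126 (day 14) and 153 (day 7 against day 1) were called. The causes were not tested, except that fewer members enter with detection on all arrays.

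Leaving out 3 arrays together (day 7 replicate 1, day 14 replicate 3 and day 28 replicate 1, chosen after seeing the data by the level of miR-467f itself) gave 10 at day 14, 8 at day 28, 21 for day 7 against day 1, 3 for day 28 against day 14 and 19 in the F test. In the same order, 126, 74, 157, 40 and 223 of all 321 tested miRNAs were called. At day 7, leaving these arrays out called 1 member lower in place of miR-467c, beside 141 of all 321. Leaving out 1 array at a time gave 3 to 16 calls at day 1, 0 to 2 (day 7), 0 to 9 (day 14), 2 to 7 (day 28), 4 to 14 for day 7 against day 1, 0 for day 28 against day 14 and 3 to 12 in the F test. At day 1 the low counts came without uninjured replicate 1 (5), 2 (4) or 3 (6) or day 1 replicate 1 (3), 2 (6) or 3 (6). At day 7 the count was 0 without any uninjured array or without day 1 replicate 2, day 7 replicate 1, day 14 replicates 2 or 3 or day 28 replicate 3, and 2 without day 28 replicate 2. At day 14 it was 2, 1 and 1 without uninjured replicates 1, 2 and 3, 1 and 0 without day 14 replicates 1 and 2, 9 without day 7 replicate 1 and 7 without day 28 replicate 1. At day 28 it was 7 without day 7 replicate 1 and 4 without day 28 replicate 2. For day 7 against day 1 it was 13 without day 7 replicate 1, 14 without day 14 replicate 3, and 8 without day 14 replicate 1 or day 28 replicate 4. The F test gave 3 without any uninjured array, 12 without day 7 replicate 1 or day 14 replicate 3, 9 without day 14 replicate 1 and 11 without day 28 replicate 2.

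With the scanner software's own detection call per miRNA in place of the spot marks, a mean of 22 members was detected on uninjured arrays, 29.3 at day 1 and 27 at day 14. For single members in the comparison that named them, 601 values kept sign and call, 263 kept the sign only, and 2 changed sign. These were miR-467c with normexp and its offset of 50 units, -0.0036 at day 14 and -0.017 at day 28. The replicate numbers did not pair the arrays (30 same-numbered pairs, r of -0.45 to 0.56, 8 over 0.1). With the replicate block 11 members were called at day 1 and 23 of 25 named results kept their call. Signal over background limits the dim members, whose folds near the floor are bounds.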
